A study of Mus musculus with 23 samples.

Results

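Messenger RNA of 7 genes of striatal projection neurons and of dopamine signalling was followed in the mouse nucleus accumbens: Drd2, Th, Penk, Tac1, Ptpn5, Arpp19 and Foxp1. The members were all probe sets that the annotation of the Affymetrix array assigns to 1 of these genes alone, which gave 12 of the 12422 probe sets tested and 7 of 8251 genes. The mice came from short-term selected lines that trace to the founder strains C57BL/6J and DBA/2J and were bred for a high (HMACT) or a low (LMACT) acute response to methamphetamine (MA). They received MA at 2 mg/kg or saline (SAL, 0 mg/kg) and were killed 1 hour later, and each array carried RNA of a 4-way pool of accumbens tissue. There were 6 pools of HMACT mice given MA, 6 of HMACT mice given SAL, 5 of LMACT mice given MA and 6 of LMACT mice given SAL. Mean age of the pools was 115 ± 35 days in HMACT MA, 114 ± 38.2 days in HMACT SAL, 76.9 ± 21.7 days in LMACT MA and 76.3 ± 25.3 days in LMACT SAL (SD over pools), so line and age were partly confounded. All groups carry the mixed background of the 2 founder strains, and nothing in the labels ties a pool to a litter or to a replicate selection line.

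Most neurons of the accumbens are GABAergic spiny projection neurons. One class carries the D2 dopamine receptor and makes enkephalin, and the other carries the D1 receptor and makes substance P and dynorphin. Dopamine reaches both from midbrain neurons whose axons end in the accumbens, and methamphetamine raises extracellular dopamine there by acting on the dopamine transporter and the vesicular transporter.

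Promoter windows of RefSeq (build GRCm38.p6, 250 bases before to 50 after each start) were matched for 6 of the 7 genes, in 10 windows; Penk is named only. The windows of Drd2 and Th, the dopamine receptor and the dopamine-synthesising enzyme, are shown because these had the highest correlation between member genes over all arrays. Each is printed 5′ to 3′ on the gene's own strand and ends at the last base before the annotated gene. Capitals mark the GC box GGGCGG or its other strand CCGCCC in Drd2, and the cyclic AMP response element TGACGTCA, which reads the same on both strands, in Th. Drd2 lies on the plus strand, chr9:49340153-49340359, and Th on the minus strand, chr7:142899996-142900245.
Drd2: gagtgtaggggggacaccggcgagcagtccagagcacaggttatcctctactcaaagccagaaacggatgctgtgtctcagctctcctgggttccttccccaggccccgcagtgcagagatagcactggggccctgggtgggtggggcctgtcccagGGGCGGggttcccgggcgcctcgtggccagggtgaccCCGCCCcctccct
Th: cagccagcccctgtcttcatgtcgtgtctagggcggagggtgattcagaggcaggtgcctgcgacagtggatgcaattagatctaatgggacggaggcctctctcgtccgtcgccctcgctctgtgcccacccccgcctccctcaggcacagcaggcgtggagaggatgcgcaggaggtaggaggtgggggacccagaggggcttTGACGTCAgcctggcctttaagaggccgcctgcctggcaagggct
The Drd2 stretch held 2 GC boxes. The Th stretch held 1 cyclic AMP response element, and its window was the only member window of the 10 with one, against 1.79% of all 32851 promoter windows. A GC box was present in 7 of the 10 member windows, including that of Th, where it is left in lower case, and in 35.7% of all windows. The AP-1 motif TGACTCA (5.20% of all windows) and the letters TATAAA (13.6%), each searched on both strands, were in none of the 10 member windows. These are matches of letters and say nothing of binding.

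All values below are the deposited log2 values, whose lowest level is a floor shared by many probe sets. Of the 12 probe sets, 10 lay above the floor (values of at least 2.3) on at least 12 arrays. Penk 161164_r_at lay at the floor on all 23 arrays, and Ptpn5 162053_i_at was above it on 5. Foxp1 96183_at held the same value, 3.88, on 17 of 23 arrays and Th 100690_at the same value, 4.22, on 7, so both carry little information on differences between pools. Levels of different probe sets cannot be set against each other. Among markers of the tissue, Pdyn, Pde1b, Six3, Rxrg and Meis2 were above the floor, whereas the probe sets of Chrm4, Ebf1, Rgs9, Cnr1, Drd3 and Oprd1 lay at it on every array. Drd1, Adora2a and Ppp1r1b were not analysed here. Tbr1, a marker of cortical excitatory neurons, was also above the floor.

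Before any group difference, 3 arrays stood apart from the other 20: HMACT MA replicate 3, HMACT SAL replicate 3 and LMACT MA replicate 4. Their scores on the first principal component of residuals from the group means, which held 60.6% of the residual variance, were 54.1 to 64.5, against -39.7 to 28.2 for the others. Relative to the other arrays of their groups, these 3 averaged 1.18 higher for Drd2, 1.14 higher for Ptpn5 and 0.73 higher for Th, on the log2 scale. For Foxp1 104415_at the mean difference was -1.68 and for Arpp19 97260_at -2.46, with all 3 arrays below the mean of the others for both probe sets. Among the first-named probe sets, Penk 94516_f_at (0.05) and Tac1 (-0.27) differed least. The second probe sets did not follow the first. Foxp1 96183_at differed by 0.39 and Arpp19 97259_at by -0.48, each with 1 of the 3 arrays above the mean of the others. Penk 94517_r_at differed by 0.56, with all 3 above. The 6 microglial markers above the floor, of 8 on the array, averaged 1.27 higher on the same arrays. Their mean ranged from 6.41 to 7.95 in HMACT MA, 6.48 to 8.84 in HMACT SAL, 6.64 to 7.55 in LMACT MA and 6.54 to 6.99 in LMACT SAL, while Aif1 and Cx3cr1, which mark microglia, were at the floor throughout. This average need not hold for each marker. In HMACT minus LMACT after SAL, 4 of the 6 were positive and 2 negative, Tyrobp (-0.57) and Ctss (-0.63). On the arrays that stood apart, the 5 oligodendrocyte markers above the floor averaged 0.63 higher. Some neuronal lists were higher on these arrays too, the 2 direct pathway genes above the floor by 0.71, the 6 interneuron markers by 0.48 and the 6 shared projection neuron genes by 0.43. The 3 cortical excitatory markers differed by -0.051, the 2 septal or hypothalamic markers by -0.34 and the 6 astrocyte markers by 0.088. In these lists Isl1 (direct pathway, mean 2.64), Neurod2 (cortical, 2.44) and Avp (septal or hypothalamic, 2.87) lay close to the floor. The 3′ minus 5′ gap was taken between the 3′ and 5′ probe sets of the actin and Gapdh controls. It averaged 2.35 ± 0.29 in HMACT MA and 2.11 ± 0.55 in HMACT SAL (SD over pools). In LMACT it averaged 2.87 ± 0.96 after MA and 2.63 ± 0.13 after SAL. LMACT MA replicate 5 had the widest gap, 4.57 against 1.07 to 2.80 on the other arrays. The part of these features in the results was not tested. Some values without these arrays, singly or together, stand beside the differences of the first-named probe sets that they moved by over 1.5 times.

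**Figure D1:**
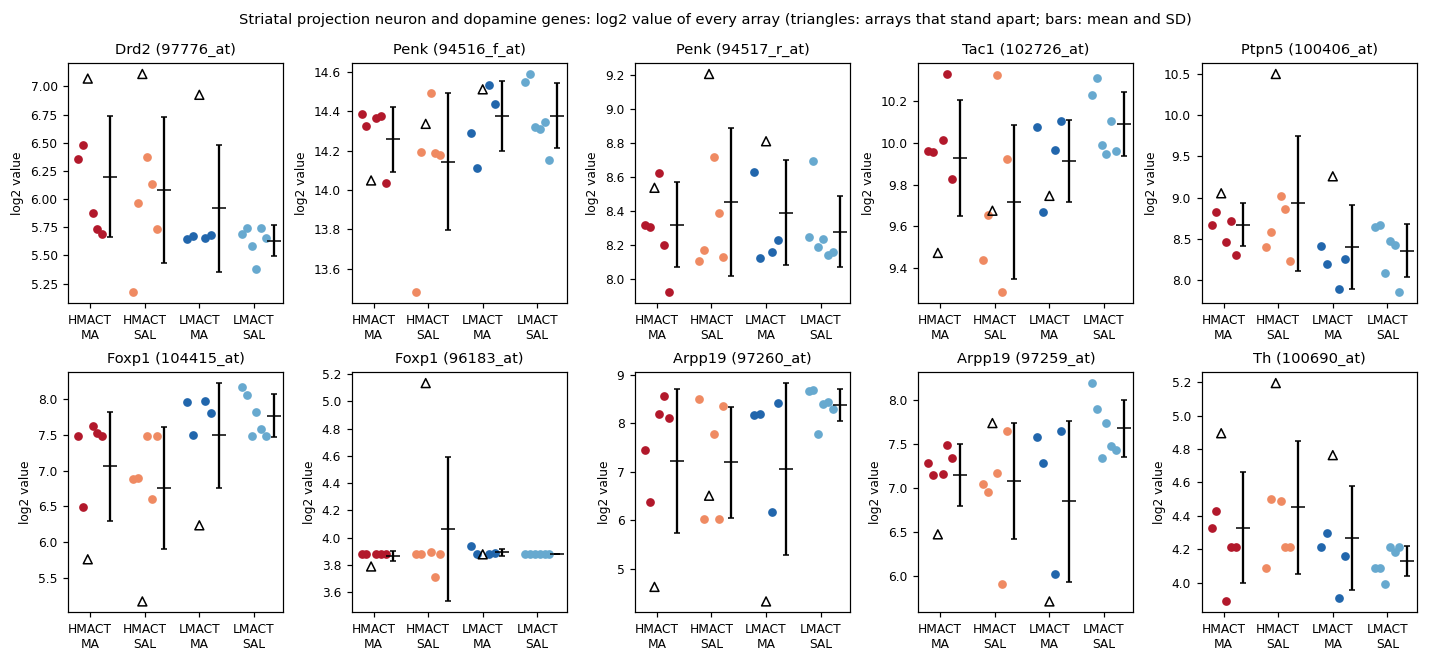
Deposited log2 value (vertical axis, own scale per panel) of the 10 member probe sets above the floor on each of the 23 arrays, by group; triangles are the 3 arrays that stand apart and the bars beside each group give mean and SD. The triangles lie at the top for Drd2 and Th and at or near the bottom for Foxp1 104415_at, and LMACT SAL, which has none, is the tightest group for Drd2 (SD 0.14).

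The comparison of MA with SAL asks whether mRNA of these genes differed 1 hour after the drug. No member passed the test. In limma's test with Benjamini-Hochberg adjustment over 12422 probe sets, 0 of the 12 member probe sets passed an adjusted p of 0.05 in HMACT, where 0.00805% of all probe sets did, 0 of 12 in LMACT (0% of all) and 0 of 12 for the mean of both lines (0.0161% of all). The interaction, the difference between the effects of MA in HMACT and in LMACT, likewise gave 0 of 12 (0% of all). At an unadjusted p under 0.05 the counts were 0 of 12 in HMACT (1.45% of all), 1 in LMACT (2.98%), 0 for the mean (1.25%) and 0 for the interaction (2.17%). For scale, the probe sets with the smallest p in the mean effect of MA were Btg2, an antiproliferative early-response gene, at 0.88 ± 0.093 (SE, adjusted p = 0.000128 in limma), and Hspa1b, a heat-shock chaperone, at -1.71 ± 0.260 (adjusted p = 0.0154). Over the 10 member probe sets above the floor, half-widths of the 95% intervals of the effect in HMACT ran from 0.28 (Penk 94516_f_at) to 1.52 (Arpp19 97260_at).

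The comparison of the lines asks what differed between mice bred for a high and a low response. In limma's test 0 of 12 member probe sets passed after SAL (0.00805% of all), 0 of 12 after MA (0% of all) and 0 of 12 for the mean over both injections (0.137% of all). At an unadjusted p under 0.05 there were 2 of 12 after SAL (12.6% of all probe sets), 0 after MA (4.07%) and 1 for the mean (10.7%), which are shares near those of the whole array. Over the 10 probe sets above the floor, the median mean line difference was -0.05, against 0.00298 over the 6831 probe sets above the floor. For the mean effect of MA the medians were -0.0015 and -0.00465.

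**Figure D2:**
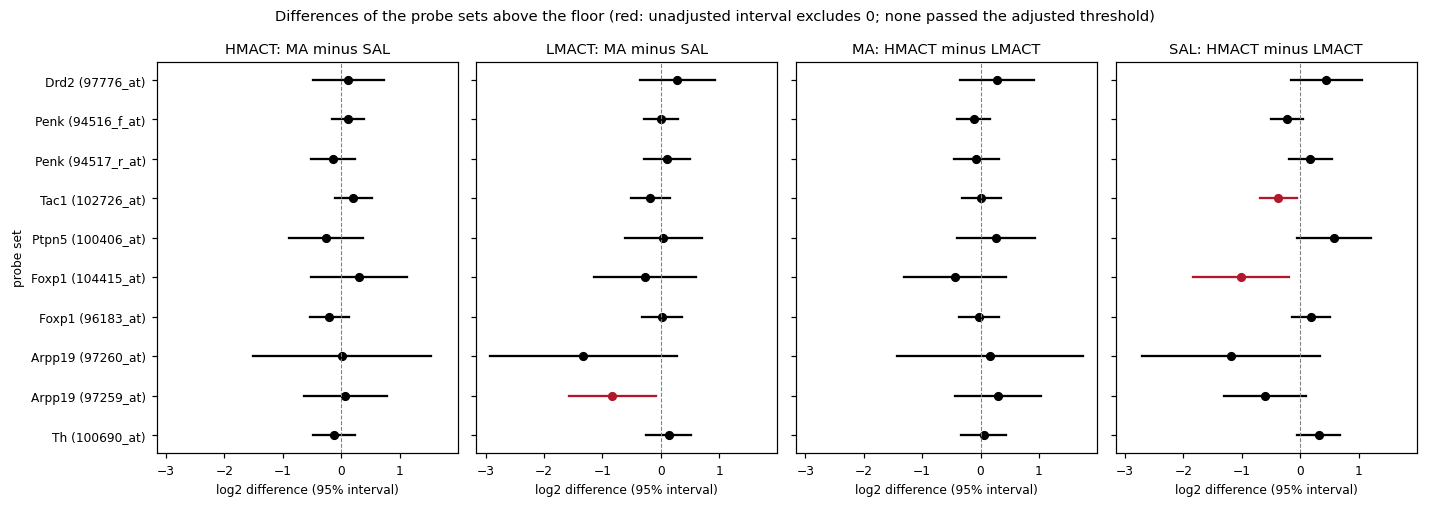
Log2 difference (horizontal axis) with its 95% interval for the 10 member probe sets above the floor, for MA minus SAL in each line and for HMACT minus LMACT after each injection; red marks intervals, unadjusted, that exclude 0. Only Tac1 (-0.37) and Foxp1 104415_at (-1.01) after SAL and Arpp19 97259_at (-0.83) for MA in LMACT are red, and none of the 3 passed after adjustment.

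Drd2 encodes the D2 dopamine receptor, a Gi-coupled receptor that is found on enkephalin neurons and also as an autoreceptor on dopamine axons. Its probe set 97776_at ranged from 5.69 through a median of 6.11 to 7.07 in HMACT MA, and from 5.17 through 6.05 to 7.11 in HMACT SAL. In LMACT MA the pools read 5.65, 5.68, 6.93, 5.66 and 5.68, and LMACT SAL ranged from 5.38 through 5.67 to 5.74. All groups overlapped, and the 3 highest values of the series, 7.11, 7.07 and 6.93, were those of the 3 arrays that stood apart. The difference between MA and SAL was 0.12 ± 0.291 in HMACT (SE; 95% interval -0.49 to 0.73) and 0.29 ± 0.305 in LMACT (-0.35 to 0.92). The HMACT value was 0.33 without SAL replicate 3 and -0.054 without MA replicate 3, and the LMACT value was 0.033 without MA replicate 4. The mean difference of HMACT from LMACT was 0.37 ± 0.211 (adjusted p = 0.546 in limma), and 8 of 12 HMACT pools lay above the LMACT mean. The line difference was 0.30 without the 3 arrays that stood apart, 0.20 with mean age as a covariate and 0.12 in pools under 100 days. For every gene, the pools under 100 days include LMACT MA replicate 4 but neither HMACT array that stood apart. With the array score as a covariate the Drd2 line difference stayed 0.37 by construction and its adjusted p in limma was 0.0163. Because the score was built from residuals of the same group means, it can alter only the error, and 1539 probe sets passed in that fit against 17 without it.

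Th encodes tyrosine hydroxylase, the rate-limiting enzyme of dopamine synthesis, whose mRNA lies mainly in the midbrain cell bodies. Th 100690_at ranged from 3.89 through 4.27 to 4.90 in HMACT MA and from 4.08 through 4.35 to 5.20 in HMACT SAL. Pools of LMACT MA read 4.22, 4.30, 4.76, 3.91 and 4.16, and LMACT SAL ranged from 3.99 through 4.14 to 4.22. As for Drd2, the highest pool of each group with such an array was the one that stood apart. The difference of MA from SAL was -0.12 ± 0.175 in HMACT (SE; interval -0.49 to 0.24) and 0.14 ± 0.184 in LMACT (-0.25 to 0.52), and the mean line difference 0.19 ± 0.127 (adjusted p = 0.630 in limma). The HMACT value was 0.027 without SAL replicate 3 and -0.24 without MA replicate 3. In LMACT it was 0.015 without MA replicate 4 and 0.23 without MA replicate 5. The line difference was 0.12 without the 3 arrays that stood apart, 0.11 without HMACT SAL replicate 3 alone, 0.030 with mean age as a covariate and 8.8e-04 in pools under 100 days. Of the dopaminergic neuron markers, Slc6a3, the dopamine transporter, and En1 were at the floor on all arrays, and Ret was above it on 1. Ddc, Nr4a2, Pitx3 and Aldh1a1 were above it, though Pitx3 (mean 2.34) and Ddc (3.04) lay close to the limit of 2.3.

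Penk encodes proenkephalin, the opioid precursor of the D2-receptor neurons. Its probe set 94516_f_at ranged from 14.04 through 14.35 to 14.39 in HMACT MA and from 13.48 through 14.19 to 14.49 in HMACT SAL. The LMACT MA pools read 14.29, 14.11, 14.51, 14.53 and 14.44, and LMACT SAL ranged from 14.15 through 14.33 to 14.59. The values span little more than 1 log2 unit in all, and the single low one is HMACT SAL replicate 1. The difference between MA and SAL was 0.11 ± 0.132 in HMACT (SE; interval -0.16 to 0.39) and -0.0018 ± 0.138 in LMACT (-0.29 to 0.29), the narrowest intervals among the first-named probe sets. The mean line difference was -0.18 ± 0.0953 (adjusted p = 0.525 in limma), with 10 of 12 HMACT pools below the LMACT mean. It was -0.16 without the 3 arrays that stood apart and -0.093 with mean age as a covariate, and without those arrays the MA difference was 0.19 in HMACT and -0.036 in LMACT. The second probe set, 94517_r_at, averaged 8.32 ± 0.25 in HMACT MA, 8.45 ± 0.43 in HMACT SAL, 8.39 ± 0.31 in LMACT MA and 8.28 ± 0.21 in LMACT SAL (SD). Its mean line difference was 0.052, and -0.024 without HMACT SAL replicate 3.

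Tac1 encodes the precursor of substance P and neurokinin A, the tachykinins of D1-receptor neurons. It ranged from 9.47 through 9.96 to 10.33 in HMACT MA and from 9.28 through 9.66 to 10.33 in HMACT SAL. In LMACT MA the pools read 10.08, 9.67, 9.75, 9.96 and 10.10, and LMACT SAL ranged from 9.94 through 10.05 to 10.31. After SAL, 5 of the 6 HMACT pools read at or below 9.92, under the lowest LMACT SAL pool, and the remaining one, replicate 4, was above every LMACT SAL pool. The HMACT minus LMACT difference after SAL was -0.37 ± 0.152 (SE; unadjusted p = 0.0235, adjusted p = 0.390 in limma). It was -0.27 with mean age as a covariate and ran from -0.50 to -0.29 when each array was left out in turn. The difference between MA and SAL was 0.21 ± 0.152 in HMACT and -0.18 ± 0.160 in LMACT; the interaction of 0.39 ± 0.221 did not pass (adjusted p = 0.884 in limma, interval -0.07 to 0.85). The mean line difference was -0.18 ± 0.110, or -0.15 without the 3 arrays that stood apart, -0.073 with mean age as a covariate and -0.039 in pools under 100 days.

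Ptpn5 encodes STEP, the striatal-enriched tyrosine phosphatase, which dephosphorylates ERK, Fyn and glutamate receptor subunits. Its probe set 100406_at ranged from 8.30 through 8.69 to 9.05 in HMACT MA and from 8.23 through 8.72 to 10.50 in HMACT SAL. Pools of LMACT MA read 8.41, 8.19, 9.26, 7.89 and 8.25, and LMACT SAL ranged from 7.85 through 8.45 to 8.67. The highest value, 10.50, belonged to HMACT SAL replicate 3, which stood apart and had the smallest 3′ minus 5′ gap of the series, 1.07. The difference between MA and SAL was -0.26 ± 0.303 in HMACT (SE; interval -0.90 to 0.37) and 0.044 ± 0.318 in LMACT (-0.62 to 0.71). In HMACT it was 0.052 without SAL replicate 3 and -0.025 without the 3 arrays that stood apart, and in LMACT -0.17 without MA replicate 4. The mean line difference was 0.42 ± 0.219 (adjusted p = 0.504 in limma), and 10 of 12 HMACT pools lay above the LMACT mean. It was 0.33 without the 3 arrays that stood apart, 0.27 without HMACT SAL replicate 3 alone and 0.15 in pools under 100 days.

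Arpp19 encodes a small phosphoprotein that is a substrate of protein kinase A and, once phosphorylated by the kinase Mastl, inhibits the phosphatase PP2A. Its probe set 97260_at had the widest spread of the members, a residual SD of 1.27, larger than that of 98.7% of the probe sets above the floor. It ranged from 4.62 through 7.78 to 8.56 in HMACT MA and from 6.02 through 7.14 to 8.50 in HMACT SAL. The LMACT MA pools read 8.16, 8.20, 4.32, 6.18 and 8.42, whereas LMACT SAL ranged from 7.79 through 8.42 to 8.70. The 2 low LMACT MA pools were replicate 4, which stood apart, and replicate 5, with the wide 3′ minus 5′ gap. The difference between MA and SAL was 0.018 ± 0.729 in HMACT and -1.33 ± 0.765 in LMACT (SE; interval -2.93 to 0.27, adjusted p = 1 in limma). Without the 3 arrays that stood apart the HMACT difference was 0.40 and the LMACT difference -0.64. With LMACT MA replicate 5 left out too, a setting chosen after seeing the data, the LMACT difference was -0.12. The second probe set, 97259_at, read 7.58, 7.29, 5.72, 6.03 and 7.65 in LMACT MA, against 7.34 through 7.61 to 8.19 in LMACT SAL. Its difference of -0.83 ± 0.354 (unadjusted p = 0.0299, adjusted p = 1 in limma) was -0.55 without LMACT MA replicate 4 and -0.18 without the 4 arrays named. The mean line difference of 97260_at was -0.51 ± 0.528, or -0.52 without the 3 arrays that stood apart, -0.25 without HMACT MA replicate 3, -0.85 without LMACT MA replicate 4, -0.10 with mean age as a covariate and 0.28 in pools under 100 days.

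Foxp1 encodes a forkhead transcription factor that is abundant in both classes of projection neurons. Its probe set 104415_at ranged from 5.76 through 7.48 to 7.62 in HMACT MA and from 5.17 through 6.89 to 7.48 in HMACT SAL. In LMACT MA the pools read 7.96, 7.49, 6.23, 7.98 and 7.80, and LMACT SAL ranged from 7.48 through 7.69 to 8.17. The same value, 7.48, was repeated on 5 of the 23 arrays. It was the highest in HMACT SAL and the lowest in LMACT SAL. All 12 HMACT pools lay below the LMACT mean, though the lines overlapped. The mean line difference was -0.72 ± 0.287 (SE; unadjusted p = 0.0206, adjusted p = 0.392 in limma), the smallest p of any member in that comparison, and after SAL the difference was -1.01 ± 0.396 (unadjusted p = 0.0192, adjusted p = 0.390). Without the 3 arrays that stood apart the mean line difference was -0.59 (adjusted p = 0.0856 in limma) and the difference after SAL was -0.70. With the array score as a covariate, which cannot alter the difference, the adjusted p was 9.6e-04 for the mean and 7.1e-04 after SAL.

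The Foxp1 line difference was smaller where age was taken into account. Among HMACT pools, the 6 with mean ages of 141.5 to 154 days ranged from 5.17 through 6.69 to 7.48, and the 6 of 77.25 to 88 days ranged from 6.60 through 7.48 to 7.62. The older 6 include both HMACT arrays that stood apart. In LMACT the 2 pools of 114.75 and 127.5 days read 7.80 and 7.48, and the 9 pools of 60 to 72.75 days ranged from 6.23 through 7.81 to 8.17. With mean age as a covariate the mean line difference was -0.32, and over pools under 100 days alone it was -0.25. After SAL the difference was -0.61 and -0.63 in these 2 settings. The pools under 100 days hold neither HMACT array that stood apart but keep LMACT MA replicate 4, which read 6.23. After MA the line difference in those pools was 0.13. The shares of age and of these arrays in the smaller values were not tested. The lines differ in age and in the mean 3′ minus 5′ gap as well as in selection. With few older LMACT pools, the parts of these in the difference cannot be fully told apart. The difference between MA and SAL was 0.31 ± 0.396 in HMACT and -0.27 ± 0.415 in LMACT, or 0.25 in HMACT and 0.044 in LMACT without the arrays that stood apart. The HMACT value was -0.0090 without SAL replicate 3 and 0.57 without MA replicate 3. The second probe set, 96183_at, mostly at a repeated value, showed no such line pattern, with means of 3.96 ± 0.37 in HMACT and 3.88 ± 0.017 in LMACT (SD).

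**Figure D3:**
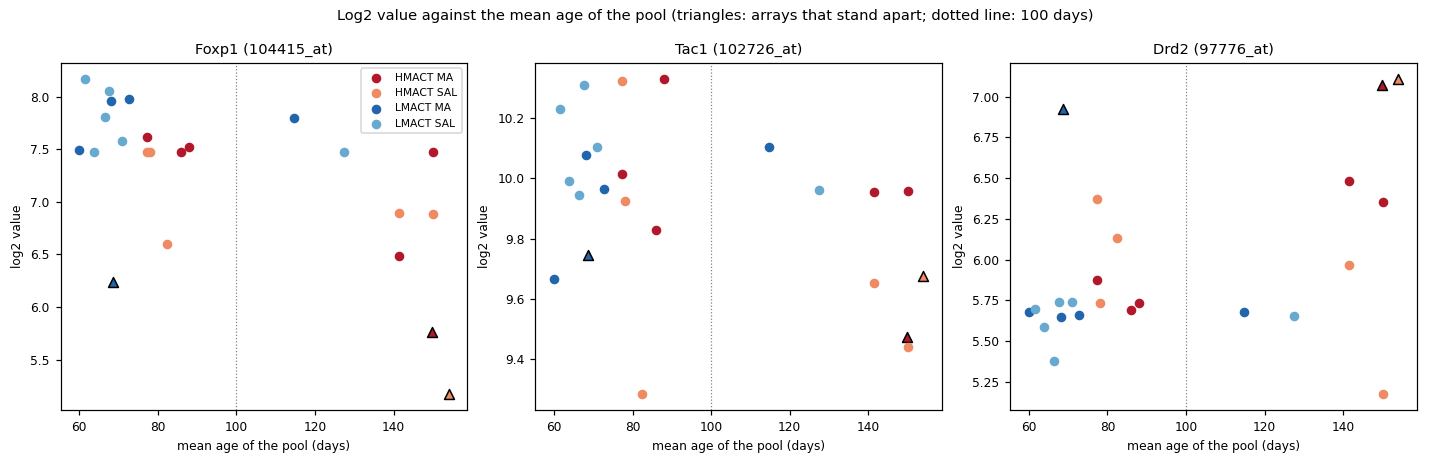
Log2 value of Foxp1, Tac1 and Drd2 (vertical axes) against the mean age of each pool in days (horizontal axis), coloured by group; triangles are the arrays that stand apart and the dotted line marks 100 days. No pool of LMACT is older than 127.5 days, and the HMACT pools of 141.5 days and more hold the lowest Foxp1 values, 5.17 and 5.76.

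The spread between pools differed among groups in the members as over the array. All 10 probe sets above the floor had a larger SD in HMACT SAL than in LMACT SAL, where 83.4% of all 6831 probe sets above the floor did. All 10 had a larger SD in LMACT MA than in LMACT SAL, against 81.8% of all. In HMACT the drug went the other way, with 1 of 10 wider after MA than after SAL (35.6% of all). HMACT MA was wider than LMACT MA in 4 of 10 (40.4%). The median SD of the members was 0.31 in HMACT MA, 0.59 in HMACT SAL, 0.41 in LMACT MA and 0.19 in LMACT SAL. Over all probe sets above the floor the median was 0.30 in HMACT MA, 0.41 in HMACT SAL, 0.36 in LMACT MA and 0.17 in LMACT SAL. Without the 3 arrays that stood apart, 9 of 10 members were wider in HMACT SAL than in LMACT SAL (75.3% of all) and 7 of 10 in LMACT MA than in LMACT SAL (62.6%). HMACT MA was then wider than HMACT SAL in 2 of 10 (29.3%) and wider than LMACT MA in 4 of 10 (48.1%).

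Within groups, members varied together in a way that depended on the 3 arrays. The correlations are of values minus their group mean, describe the arrays, and share each array's RNA, labelling and scan. Over the 20 other arrays, Drd2 correlated most with Penk 94516_f_at (Pearson r 0.69, Spearman rho 0.58) and with Th at 0.53 (rho 0.52), whereas over all 23 arrays the Drd2 and Th value was 0.86. Drd2 and Foxp1 104415_at gave -0.18 over the 20 arrays and -0.78 over 23. Penk 94516_f_at and Tac1, the peptides of the 2 neuron classes, gave 0.66 over 20 and 0.61 over 23, and the 2 Arpp19 probe sets 0.75 and 0.76.

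**Figure D4:**
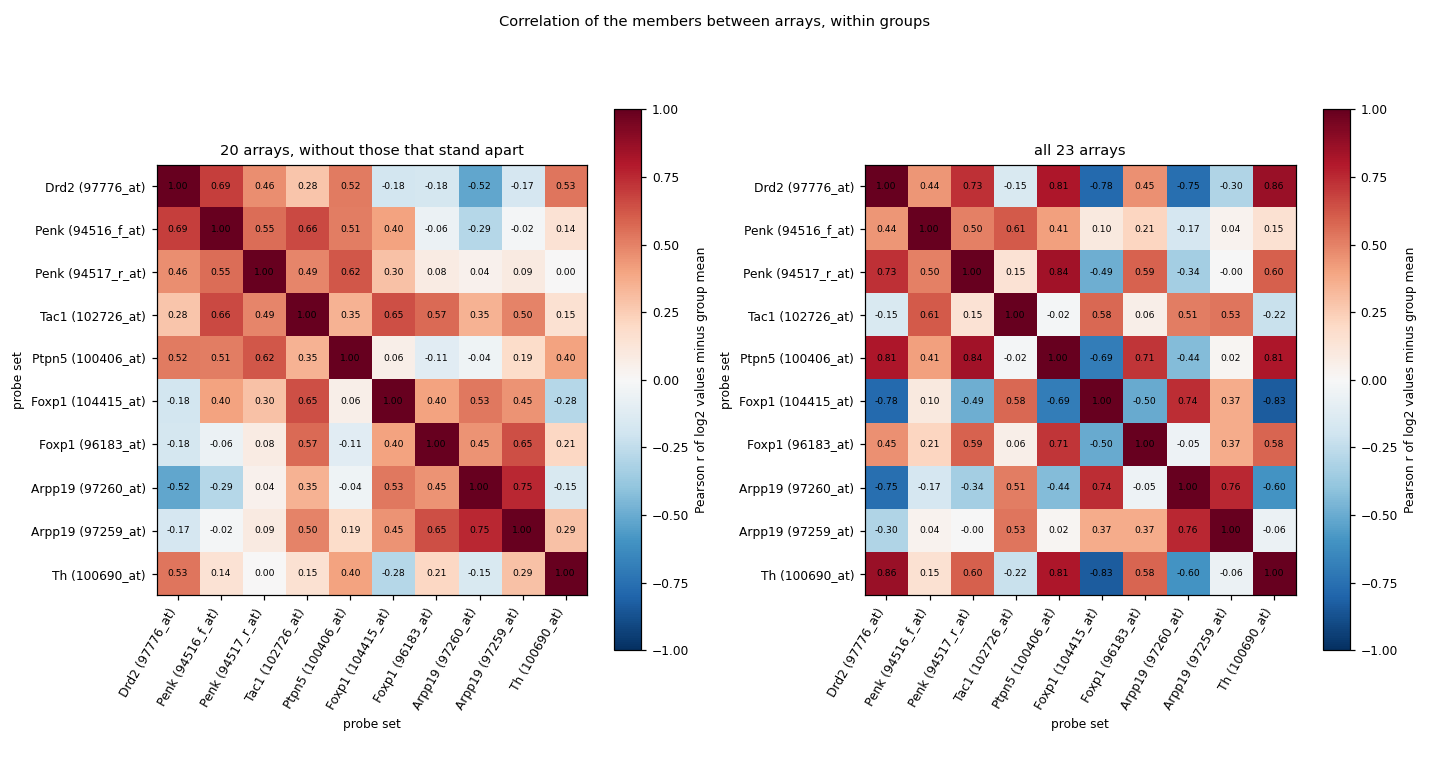
Pearson correlation of log2 values minus the group mean between the 10 member probe sets above the floor, over the 20 arrays that do not stand apart and over all 23; colour runs from -1 (blue) to 1 (red). The opposite signs of Drd2 and Foxp1 104415_at are strong over 23 arrays (-0.78) and weak over 20 (-0.18).

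Among 5301 other genes above the floor, the one most like Drd2 by this measure was Pdyn, which encodes prodynorphin, the opioid precursor of D1-receptor neurons (r 0.95 over 23 arrays and 0.86 over the 20), followed by Rbck1 (0.94 and 0.83) and Scarb1 (0.92 and 0.83). Pdyn itself did not pass in any comparison, with a mean line difference of 0.47 ± 0.283 (SE; adjusted p = 0.562 in limma). For Penk they were Lamtor5 (0.80 and 0.78), Atraid (0.78 and 0.85) and Hdhd2 (0.78 and 0.84), and for Tac1 Scg2, a secretory granule protein (0.77 and 0.74), Sdc2 (0.75 and 0.76) and Hspa5 (0.74 and 0.68). Ptpn5 was most like Cd68, a marker of microglia and macrophages (0.93 and 0.83), Rap1gap (0.93 and 0.74) and Mbtps1 (0.91 and 0.67). Foxp1 was most like Sptssa (0.96 and 0.84), C330007P06Rik (0.96 and 0.83) and Dcaf13 (0.95 and 0.79). Arpp19 was most like Zeb1 (0.97 and 0.96), Sub1 (0.97 and 0.94) and Tbc1d15 (0.97 and 0.92), and Th most like Fto (0.92 and 0.75), Cenpb (0.91 and 0.68) and Rbck1 (0.90 and 0.60).

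The other genes of the members' pathways gave no call either. In limma's test no listed gene passed in the mean effect of MA or the mean line difference, where 1.25% and 10.7% of all probe sets had an unadjusted p under 0.05. The counts at that level were 0 and 1 of 8 for shared projection neuron genes, 0 and 1 of 9 for dopamine synthesis, transport and receptors, and 0 and 1 of 8 for peptide processing and receptors. Among substrates of STEP they were 1 and 1 of 5, both of them Fyn, a Src-family kinase (0.25 ± 0.107 for MA and -0.37 ± 0.107 for the line, SE, adjusted p = 1 and 0.225). In the PP2A pathway of Arpp19 they were 0 and 4 of 9, led by Prkaca, a catalytic subunit of protein kinase A (line difference 1.15 ± 0.332, adjusted p = 0.225), and Ppp2ca, the catalytic subunit of PP2A (-0.37 ± 0.158, adjusted p = 0.422). Ensa, the close relative of Arpp19, gave 0.15 ± 0.148 for the line and -0.17 ± 0.148 for MA. Spr, which makes the cofactor of tyrosine hydroxylase, had a line difference of 0.38 ± 0.145 (adjusted p = 0.387), Rxrg, a retinoid receptor of projection neurons, 0.59 ± 0.266 (adjusted p = 0.444), Pcsk1n, an inhibitor of a prohormone convertase, 1.06 ± 0.316 (adjusted p = 0.256), and Aldh1a1, an aldehyde dehydrogenase of dopamine neurons, -0.75 ± 0.182 (adjusted p = 0.134). In bulk tissue, fewer cells of a type and less RNA per cell cannot be told apart.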

How the data were processed

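The series measured mRNA of 23 pools of accumbens tissue on 1 Affymetrix array each. The authors deposited log2 values, 1 per probe set and array, already processed from the scans by steps not given in the sources used here; the log2 scale was inferred from their range, 2.23 to 16.4. Per the submitters' processing notes R 2.7.1 was used. Values under 2.3 (44.1%) count as the floor. Of 12488 probe sets, 66 controls were left out, and genes were named from the platform annotation where 1 gene is given (10833 probe sets; 396 had several), with current symbols from RefSeq for 10817.

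limma 3.58.1 in R 4.3.3 (lmFit, contrasts.fit, eBayes) fitted 4 group means over 23 arrays, without covariates, for 7 two-sided comparisons, with Benjamini-Hochberg adjustment over 12422 probe sets and a threshold of 0.05. The script was tested on simulated data. Groups, ages and chip lots came from the labels, which do not say how animals were shared. Each p-value therefore reflects only pool-to-pool spread, which may be technical. LMACT MA replicate 4, which stands apart, was alone in its chip lot. For the chip lot covariate it was joined to the lot with the most similar number. No 2 arrays were identical.

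Every member probe set is named, the one with the highest mean first for its gene. The further probe sets of a gene are described in part, without every difference. For each gene the 3 most correlated others are named, and from each list up to 2 genes with the smallest p in each mean comparison, though not for every list. Arrays stand apart above the median score plus 3.5 median absolute deviations. The members and lists were chosen with earlier results of these data known. Alternatives were other normalizations, filters and probe set rules, eBayes with trend, array weights, chip lot, age, replicate blocks, the array score, and leaving out arrays.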

Additional observations from a re-analysis of the deposited data

Results flagged for a closer look

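Within-group extremes were checked in 40 groups of values (10 member probe sets in 4 groups of 5 or 6 pools) as the gap of the highest or lowest pool to its nearest neighbour, divided by the range of the group. In 10 groups this share passed the 95% limit of Dixon's test, where chance alone gives about 5% of groups, and probe sets of 1 array are not independent. The 5% holds for values without ties. Foxp1 96183_at read 3.88 on 17 of 23 arrays, so its extremes cannot be set against that rate. Of the 10 extremes, 7 were on arrays that stand apart.

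Drd2 in LMACT MA replicate 4 read 6.93 against 5.68 for the next pool, a gap of 0.977 of the range. The same array gave the low Foxp1 104415_at value of 6.23 against 7.49 (0.722). HMACT SAL replicate 3 was high for Ptpn5 100406_at at 10.50 against 9.02 (0.654), for Foxp1 96183_at at 5.13 against 3.90 (0.868) and for Th at 5.20 against 4.50 (0.625). HMACT MA replicate 3 was low for Arpp19 97259_at at 6.48 against 7.15 (0.666) and for Foxp1 96183_at at 3.79, where the other 5 pools share the value 3.88 (a gap of 1, the whole range).

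The remaining extremes were on arrays that do not stand apart. Penk 94516_f_at in HMACT SAL replicate 1 read 13.48 against 14.18 (0.688), Penk 94517_r_at in LMACT SAL replicate 2 read 8.69 against 8.25 (0.815), and Foxp1 96183_at in LMACT MA replicate 2 read 3.94 against 3.89 (0.799).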

How the results depend on the processing

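No member passed in any of 7 comparisons, and under 41 other settings (18 general, 23 leaving out 1 array each) this count changed only with the array score as a covariate, to 3 after SAL (Drd2, Foxp1 104415_at and Arpp19 97260_at) and 2 for the mean line difference (Drd2 and Foxp1 104415_at). That fit shrinks the error by construction. Over the whole array, the probe sets called for the mean line difference numbered 17, from 0 in pools under 100 days to 1539 with the array score. After SAL there was 1, against up to 1847 with the array score. With array weights the calls were 1014 for the mean line difference, 303 after SAL and 67 for MA in LMACT. Without the 3 arrays that stood apart they were 86 for the mean line difference. Foxp1 104415_at had an adjusted p of 0.0706 in limma for the mean line difference with array weights. With the array score the calls were 177 for MA in LMACT, 298 for the interaction (0 each in the reported fit) and 5 for MA in HMACT (1). In every other setting the interaction had 0 calls. With array weights there were 192 calls for the line after MA (0 in the reported fit) and 7 for the mean effect of MA (2). Of the 77 differences of 11 member probe sets, 49 changed sign under at least 1 setting, in 186 of 3068 values; none of these 77 had passed, so their directions are not established. Of 25 that are printed in the text, 10 changed sign and 15 did not. The mean line difference of Penk 94517_r_at, also printed, is not among the 25. It changed sign in 2 general settings, with a lowest value of -0.036 in pools under 100 days.

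The printed values that changed sign under general settings were these. For Penk 94516_f_at, MA in LMACT was 0.033 with quantile normalization, 0.036 as the mean of the gene's probe sets and 0.019 within the lot of 15 arrays; MA in HMACT was -0.0070 as the mean of the probe sets and -0.026 in pools under 100 days. For Ptpn5, MA in LMACT was -0.11 with array weights, -0.14 within that lot, -0.020 in pools under 100 days, -0.072 once the 3 arrays apart and LMACT MA replicate 5 were left out, and -0.17 when only the 3 were. For Foxp1, MA in LMACT was 0.080 within the lot and 0.044 without the arrays that stand apart. For Drd2, MA in HMACT was -0.074 with array weights and -0.31 in pools under 100 days. For Arpp19 97260_at, MA in HMACT was -0.71 within the lot, and the mean line difference was 0.28 in pools under 100 days. Leaving out each array gave, for MA in HMACT, -0.25 to 0.54 for Arpp19 97260_at, -0.062 to 0.33 for Drd2, -0.0090 to 0.57 for Foxp1, -0.020 to 0.18 for Penk, -0.40 to 0.052 for Ptpn5 and -0.24 to 0.027 for Th. For MA in LMACT it gave -0.39 to 0.044 for Foxp1, -0.047 to 0.065 for Penk and -0.17 to 0.17 for Ptpn5. Beyond the settings' own construction, the cause was not tested.

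Replicate numbers are shared between groups. Residuals of the 11 same-numbered pairs within a line correlated from -0.61 to 0.87, with 8 over 0.1 and a median of 0.26. The 22 same-numbered pairs across lines had 8 over 0.1 and a median of -3.6e-04. In the labels, same-numbered MA and SAL pools share the chip lot in 6 of 6 HMACT and 4 of 5 LMACT pairs and the mean age in 3 of 6 HMACT and 0 of 5 LMACT pairs, but no label says that a number marks a batch. Since not every pair within a line was over 0.1, the block was kept as an alternative. With the replicate block, no member passed; Penk 94516_f_at for MA in LMACT was 0.033 with a fixed block and 0.0024 with a random one (consensus correlation 0.121).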
